A study of Mus musculus with 2 samples.

Results

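The 6 genes described here are Mir335, Mir296, Mir298, Mir483, Mir675 and Mir184, the miRNA genes of imprinted loci outside the Dlk1-Dio3 region. They were chosen by name and matched by Ensembl identifier, with earlier results of these data known. They are 6 of the 1973 miRNA genes in each library. The libraries were made from RNA under 30 nucleotides of intestines taken from B6NCrl mouse embryos (embryonic day 16.5), with male and female embryos pooled. There is 1 group with 2 biological replicates, so the comparisons are of genes with each other and of replicate 2 with replicate 1. Replicate 2 pooled 41 embryos, and for replicate 1 the labels state no number. B6NCrl is an inbred strain, and the counts carry no information on the parental allele.

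An imprinted gene is transcribed mainly or only from the allele of 1 parent. Often this is set by DNA methylation laid down in the germ line. Many imprinted loci control fetal growth, and several hold miRNA genes in their introns, exons or long noncoding RNAs. A miRNA is cut from a hairpin transcript and lowers the output of messenger RNAs that pair with its seed, bases 2 to 8 of the mature strand. In mice, Mest, the Gnas antisense transcript Nespas and Igf2 are transcribed from the paternal allele and H19 from the maternal allele. Paternal expression of miR-184 is known from mouse brain. These allele assignments are background and were not measured in the intestine.

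The mature sequences are shown because the seed sets which messenger RNAs a miRNA can pair with, and because a sequence with copies elsewhere could lose reads from its count. The 2 arms of each hairpin are printed from RefSeq (GRCm38.p6, the assembly also called mm10), 5′ to 3′, with the seed in capitals.
miR-335-5p: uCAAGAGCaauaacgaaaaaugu
miR-335-3p: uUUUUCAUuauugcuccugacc
miR-296-5p: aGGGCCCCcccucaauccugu
miR-296-3p: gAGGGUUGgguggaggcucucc
miR-298-5p: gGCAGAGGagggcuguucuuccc
miR-298-3p: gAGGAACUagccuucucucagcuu
miR-483-5p: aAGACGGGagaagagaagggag
miR-483-3p: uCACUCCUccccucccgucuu
miR-675-5p: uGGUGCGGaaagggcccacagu
miR-675-3p: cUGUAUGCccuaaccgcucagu
miR-184-5p: cCUUAUCAcuuuuccagccagc
miR-184-3p: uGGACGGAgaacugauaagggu

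All 6 genes matched the sequence table, and their 12 mature sequences of 21 to 24 bases had 12 distinct seeds. None of the 12 seeds was also the seed of a mature sequence of another gene among the 1738 in the table. Other positions of those sequences were not searched. None of the 12 sequences had an identical copy there. None of the 6 hairpins shared a stretch of 20 bases with another of the 1005 hairpins in the table, which is not complete. The deposited counts are per hairpin gene, so each level below is the sum over both arms and their seeds. The hairpins differed in base composition. Mir335 had a G+C content of 42.9% and Mir184 of 46.4%, below the median of 52.3% over the 869 hairpins that have a row here. Mir298 (53.7%), Mir483 (58.9%), Mir675 (63.1%) and Mir296 (63.3%) lay above it.

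Replicate 2 held 5680764 reads on the strand of a miRNA gene and replicate 1 held 4261976. Levels are each gene's share of that total, scaled to CPM, so that all genes of a library sum to 1000000. In CPM, 1 count is worth 0.176 in replicate 2 and 0.235 in replicate 1. Intervals are exact Clopper-Pearson 95% intervals. They reflect counting error within 1 library alone, not the variation between replicates. Duplicate reads from PCR were not separable from independent molecules, so the intervals may be too narrow even for counting error. Markers fixed for the tissue were present. The 10 miRNAs of intestinal epithelium held 12.3% of the counts in replicate 2 and 10.8% in replicate 1, and the 5 of smooth muscle and mesenchyme held 17.7% and 18.5%. Most of the smooth muscle and mesenchyme share was Mir143 alone, at 170594 CPM in replicate 2 and 177010 CPM in replicate 1. Mir126a of endothelium held 3.36% and 3.08%. Blood miRNAs held 0.126% and 0.147%, with Mir142b at 0 on its own strand, and muscle miRNAs held 0.0121% and 0.00992%, with Mir133a-1 and Mir133a-2 at 0. Mir133a-1 and Mir133a-2 carry the same mature miRNA, and reads that map to several loci are outside these counts. Their 0 therefore does not show a low level, and the muscle share leaves such reads out and may be too low. Of the 9 listed muscle genes 8 had a row, and Mir1a-2 had none. The pancreas list held 0.000475% and 0.000164%, and the liver miRNA Mir122 held 0.0448% and 0.0994%.

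Mir335, the gene in an intron of Mest, was by far the highest of the 6 genes. Mest encodes an enzyme of the alpha/beta hydrolase fold that is abundant in embryonic mesoderm, and in human breast cancer cells miR-335 represses SOX4 and TNC. The gene lies at chr6:30741299-30741396 on the plus strand (mm10), inside 7 annotated Mest transcripts and in none of their exons. It had 203272 counts in replicate 2 and 148232 in replicate 1, or 35782.5 and 34780 CPM. Its intervals of 35630 to 35936 CPM (replicate 2) and 34606 to 34955 CPM (replicate 1) did not overlap, although the levels were 1.03-fold apart. Its mean of 35281 ± 709 CPM (SD, n = 2) ranked 5 among all genes, and it ranked 5 in each library. It made up 85.5% of the counts of the 6 genes in replicate 2 and 82.5% in replicate 1.

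Mir296 and Mir298, the pair downstream of Nespas in the Gnas region, followed at moderate levels close to each other. In mouse embryonic stem cells miR-296 is known to act on Nanog, and in cultured mouse cells miR-298 represses Bace1. Mir296 lies at chr2:174267047-174267125 and Mir298 at chr2:174267504-174267585, both on the minus strand and 379 bases apart. In GENCODE M21 neither lies in another gene on its own strand, and the annotated end of Nespas is 13.7 kb from Mir298. Overlap with genes on the opposite strand was not searched. Mir296 had 2752 CPM in replicate 2 and 3047 CPM in replicate 1 (15634 and 12988 counts). Mir298 had 2088 CPM in replicate 2 and 2618 CPM in replicate 1 (11859 and 11159 counts). In both libraries Mir296 was the higher of the pair, and the lower of its levels stood above the higher level of Mir298. The ratio of Mir296 to Mir298 within a library was 1.32 in replicate 2 (interval 1.29 to 1.35) and 1.16 in replicate 1 (1.13 to 1.19), a mean of 1.24 ± 0.109 (SD, n = 2).

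Few other neighbouring miRNA genes had counts as near to each other as this pair. Of 64 pairs of next neighbours on 1 strand, under 1 kb apart and with at least 20 counts summed for each gene, the median ratio of the higher to the lower gene was 7.55. These ratios are means of the 2 libraries. Only 9 pairs were within 2-fold, Mir296 with Mir298 among them. By that mean 3 pairs had a smaller ratio: Mir302a with Mir302d, Mir27a with Mir24-2, and Mir421 with Mir374b. The order was not the same in each library. In replicate 1 Mir27a with Mir24-2 had 1.19, against 1.16 for Mir296 with Mir298. In replicate 2 Mir188 with Mir532 had 1.12, against 1.32. These 64 pairs include genes with a mature copy elsewhere, whose reads map to several loci and are outside the counts. The comparison is a description of counts and no test was made of it.

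Mir483, in an intron of the fetal growth factor gene Igf2, came next and differed most between the replicates in level. Igf2 promotes growth of the fetus and placenta, and in human cells miR-483-3p represses the apoptosis gene BBC3. Mir483 lies at chr7:142654924-142654996 on the minus strand, inside 7 Igf2 transcripts and a transcript of Gm49394 that spans it, and in no exon of either. It had 1077.5 CPM in replicate 2 and 1511 CPM in replicate 1 (6121 and 6440 counts). Replicate 2 was the lower, with intervals of 1051 to 1105 CPM against 1474 to 1548 CPM in replicate 1. The mean was 1294 ± 307 CPM (SD, n = 2), an SD of 23.7% of the mean, against 2.01% for Mir335, 7.20% for Mir296, 15.9% for Mir298, 6.59% for Mir675 and 10.8% for Mir184.

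Mir675, the only one of the 6 with a maternally expressed host, was a low gene. It is cut from the noncoding RNA H19, and in mouse placenta miR-675 is known to restrain growth and to repress Igf1r. It lies at chr7:142577064-142577147 on the minus strand, in an exon of 3 of the 4 H19 transcripts that span it and 77.8 kb from Mir483. It had 153 CPM in replicate 2 and 168 CPM in replicate 1 (867 and 714 counts). Its intervals of 143 to 163 CPM (replicate 2) and 155 to 180.3 CPM (replicate 1) overlapped. Igf2 and H19 share enhancers and are expressed from opposite alleles. Their miRNAs differed in level, with Mir483 at 7.06 times Mir675 in replicate 2 (interval 6.57 to 7.59) and 9.02 times in replicate 1 (8.35 to 9.76), a mean of 8.04 ± 1.39 (SD, n = 2). These intervals did not overlap between the libraries.

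Mir184 was the lowest and least precisely measured of the genes. The miRNA is known for its abundance in the lens and cornea and, in mouse neural stem cells, for repression of Numbl. The gene lies at chr9:89802260-89802328 on the minus strand, outside other annotated genes of that strand. Ankrd34c is the nearest coding gene at 63785 bases, and the imprinted Rasgrf1 is 107.6 kb away. It had 115 counts in replicate 2 and 74 in replicate 1, or 20.2 and 17.4 CPM. Its intervals of 16.7 to 24.3 CPM (replicate 2) and 13.6 to 21.8 CPM (replicate 1) overlapped. Both libraries were well above the detection limit of 3 counts, 0.528 CPM in replicate 2 and 0.704 CPM in replicate 1.

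**Figure D1:**
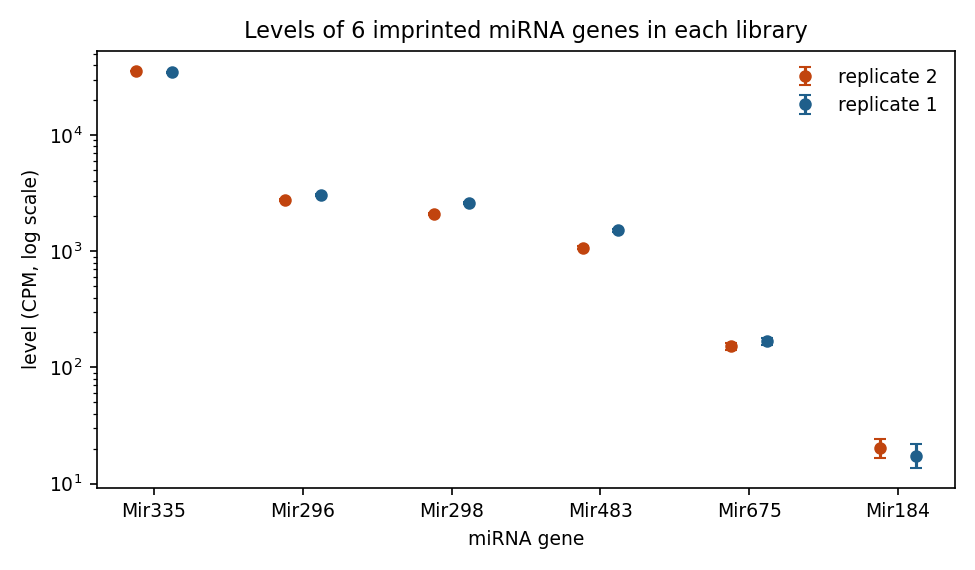
Level of each gene (vertical axis, CPM on a log scale) in replicate 2 and replicate 1, with exact 95% counting intervals as bars, which are smaller than the points for the higher genes. The order of the 6 genes is the same in both libraries, with Mir335 near 35281 CPM and Mir184 near 18.8 CPM.

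The order of the 6 genes was the same in both libraries, and no neighbours in it overlapped between libraries. Mir335 stood 12.2 ± 1.12 times above Mir296, which came 1.24 ± 0.109 times above Mir298. Mir298 was 1.84 ± 0.145 times above Mir483, and Mir675 was 8.59 ± 1.49 times above Mir184 (SD, n = 2 throughout). From top to bottom Mir335 exceeded Mir184 by 1885 ± 167 times. Such ratios between genes are of counts. A bias of library preparation between sequences is shared by both libraries and is not measured by the spread between them, and in whole tissue fewer cells of a type and less RNA per cell cannot be told apart.

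Among the detected genes of the library, Mir335 stood near the top, Mir296, Mir298 and Mir483 in the upper part, Mir675 near the middle and Mir184 in the lower part. Of 347 genes with at least 10 counts in both libraries, 98.6% were below Mir335, 83.9% below Mir296, 80.7% below Mir298, 75.8% below Mir483, 50.7% below Mir675 and 23.9% below Mir184. By mean level they ranked 5, 56, 67, 84, 171 and 264.

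The genes nearest in level, which is the only likeness that 2 libraries of 1 group allow, mostly lay within the replicate spread of them. Mir335 stood between Mir10a (43598 CPM in replicate 2 and 47208 in replicate 1) and Mir26b (34633 and 31041 CPM). Both of its values lay below both values of Mir10a and, by a narrow margin, above both values of Mir26b. The next genes around Mir296 were Mir423 (2983 ± 540 CPM) and Mir183 (2886 ± 183 CPM). Those around Mir298 were Mir139 (2487 ± 168 CPM) and Mir361 (2306 ± 152 CPM), and those around Mir483 were Mir455 (1502 ± 228 CPM) and Mir532 (1256 ± 64.1 CPM). Mir675 lay between Mir490 (168 ± 58.2 CPM) and Mir328 (159 ± 34.6 CPM), and Mir184 between Mir758 (19.01 ± 4.97 CPM) and Mir378c (18.6 ± 4.89 CPM). For these 10 neighbours the difference in mean from the imprinted gene was smaller than the SD of 1 or both genes.

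**Figure D2:**
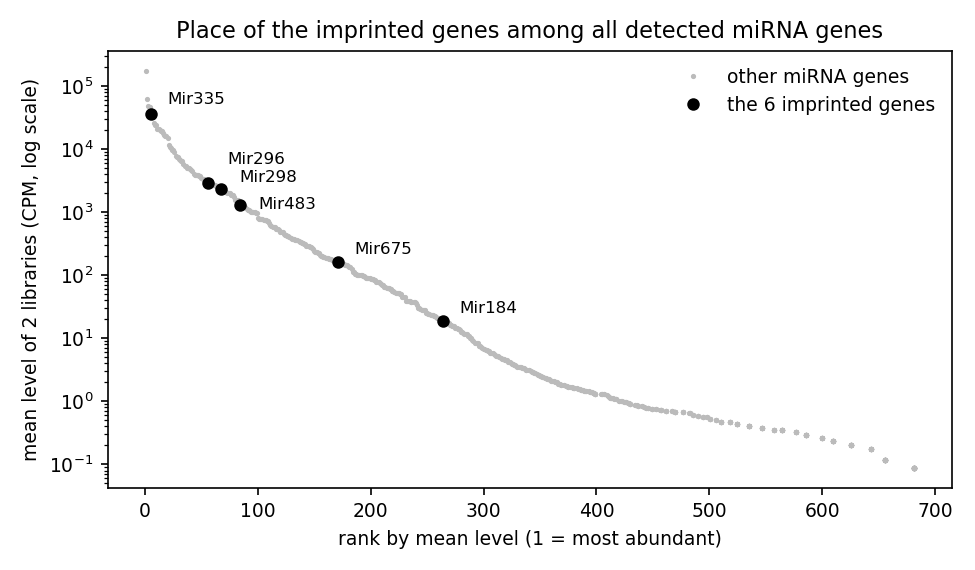
Mean level of 2 libraries (vertical axis, CPM on a log scale) against rank among all detected miRNA genes (horizontal axis), with the 6 imprinted genes in black. Mir335 stands at rank 5, Mir296, Mir298 and Mir483 fall between ranks 56 and 84, and Mir675 and Mir184 lie at ranks 171 and 264.

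Summed by locus, Mest held most of the counts. The Mest locus held 35281 ± 709 CPM, the Gnas region 5253 ± 584 CPM, Igf2 1294 ± 307 CPM, H19 160.1 ± 10.5 CPM and the Mir184 locus 18.8 ± 2.04 CPM (SD, n = 2). The 5 genes with a paternally expressed locus together had 41720 CPM in replicate 2 and 41974 CPM in replicate 1. That was 273 times the level of Mir675 in replicate 2 and 251 times in replicate 1, and most of it was Mir335. The 6 genes together held 4.19% of all counts in replicate 2 (interval 4.17% to 4.20%) and 4.21% in replicate 1 (4.20% to 4.23%). These intervals overlapped, although the members did not all go 1 way. In CPM, Mir335 and Mir184 were higher in replicate 2 and Mir296, Mir298, Mir483 and Mir675 were lower.

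Set beside the other imprinted miRNA loci, the 6 genes held less than the maternally expressed Dlk1-Dio3 region and more than the Sfmbt2 cluster, whose host is paternally expressed in mouse extraembryonic tissue. The 50 listed Dlk1-Dio3 genes that have a row held 53370 CPM in replicate 2 and 59257 CPM in replicate 1 (56313 ± 4163 CPM), so the 6 genes had 0.785 and 0.711 times their counts. Its top genes were Mir411 (9499 ± 478 CPM), Mir127 (7368 ± 490 CPM) and Mir487b (6443 ± 239 CPM), all below Mir335 in both libraries. The top Dlk1-Dio3 gene held 17.2% of its list in replicate 2 and 16.6% in replicate 1, where Mir335 held 85.5% and 82.5% of the 6. The Dlk1-Dio3 list has 50 genes against 6, so these 2 shares are not like measures. Reads on the opposite strand at 4 rows of that region added 9909 CPM in replicate 2 and 10072 CPM in replicate 1. The rows were picked for having more opposite-strand than own-strand counts. With those reads the ratios were 0.662 and 0.608. The 6 genes themselves had 3 opposite-strand reads in each library, all at Mir335. The 107 rows of the Sfmbt2 cluster held 3146 CPM in replicate 2 and 3491 CPM in replicate 1, led by Mir467e (987 ± 61.0 CPM), Mir467d (961 ± 23.3 CPM) and Mir467c (732 ± 129.8 CPM). Of these rows, 81 had 0 counts in both libraries. Reads that mapped to several loci, 25.7% of reads in replicate 2 and 26.2% in replicate 1, are outside all of these sums, and none of the 6 genes has an identical mature copy in the sequence table. The loci were compared as a description, with no test.

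**Figure D3:**
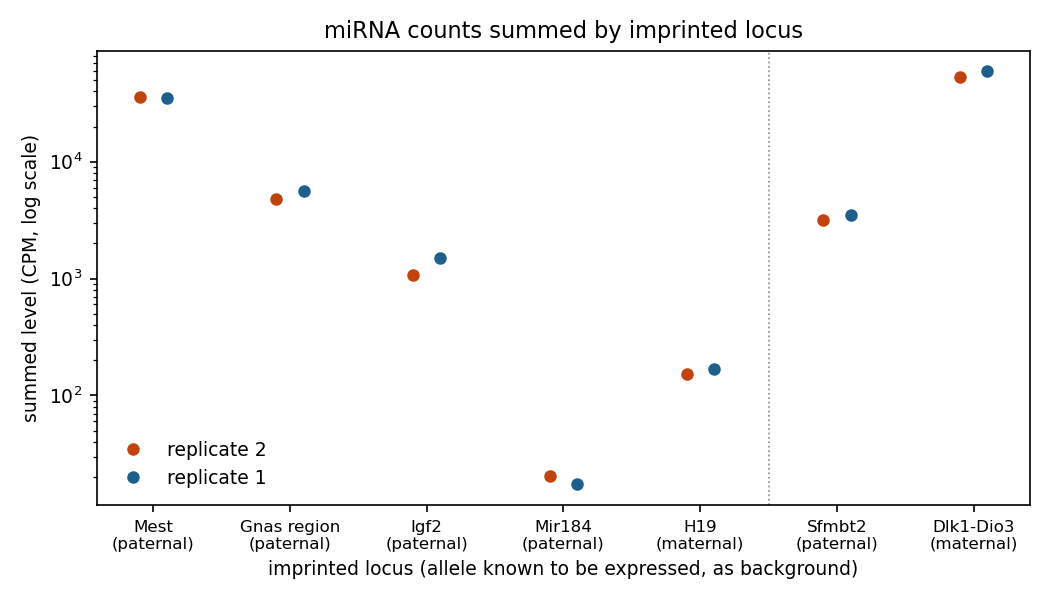
Counts summed by imprinted locus (vertical axis, CPM on a log scale) in replicate 2 and replicate 1, with the allele known as background under each name. Left of the dotted line are the loci of the 6 genes, where Mest is highest at 35281 CPM, and to the right are the Sfmbt2 cluster and the Dlk1-Dio3 list.

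Between the replicates, Mir335 was higher in replicate 2, Mir298 and Mir483 were lower, and the other 3 genes did not pass the test. An exact two-sided binomial test was run on the counts of each of 364 genes with at least 20 counts summed, with TMM scaling of the libraries and Benjamini-Hochberg adjustment at 0.05. It called 3 of the 6 genes, against 51.9% of all genes tested, so their share was near that background. In the direction higher in replicate 2 it called 1 of the 6 genes, against 24.5% of all genes tested, and in the direction lower in replicate 2 it called 2, against 27.5%. The test covers counting error only and compares 2 libraries, not conditions. At these counts small ratios pass it.

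Mir335 had a log2 ratio of replicate 2 to replicate 1 of 0.17 with a counting error of 0.0049 (adjusted p of the exact test 2.61e-262). Of all genes tested, 59.6% had a ratio at least as far from 0. Mir298 had a log2 ratio of -0.20 with a counting error of 0.019 (adjusted p of the exact test 3.10e-24), and 53.0% of genes were at least as far apart. Thus the ratios of both genes were of a common size for these libraries.

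Mir483 had the largest ratio of the genes called, at -0.36 with a counting error of 0.026 (adjusted p of the exact test 6.03e-43). Of all genes tested 28.3% were at least as far from 0, and of the 94 genes at 1000 CPM or more 11 were. The liver miRNA Mir122, the single gene of its marker list, was also lower in replicate 2, at 448 CPM against 994 CPM in replicate 1 (log2 ratio -1.02). The epithelial marker list was higher in replicate 2, at 12.3% of counts against 10.8% in replicate 1. Its members did not all go 1 way. Mir215 had 29302 CPM in replicate 2 against 18486.5 CPM in replicate 1. By CPM, Mir375 (15726 against 17643), Mir200c (18902 against 19400) and Mir192 (7504 against 7516) were lower in replicate 2, and the other members were higher. The part of Mir122 and of the epithelial list in the ratios of the imprinted genes was not tested.

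Mir296 (log2 ratio -0.02, adjusted p of the exact test 0.400), Mir675 (-0.01, adjusted p of the exact test 0.987) and Mir184 (0.35, adjusted p of the exact test 0.172) did not pass. The signs of Mir296 and Mir675 turned positive with DESeq2 size factors or with no filter on low counts. For Mir184, with 115 counts in replicate 2 and 74 in replicate 1, the counting error of the log2 ratio was 0.21, so a difference of this size was not detectable at this depth. The median log2 ratio of the 6 genes was -0.01 and that of all 364 genes -0.02, and the median absolute ratio was 0.18 for the 6 and 0.21 for all. None of the 6 was called at a 1.5-fold difference or more, against 11.0% of all tested genes that passed the test and were at least 1.5-fold apart.

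The scaling set part of this picture. TMM scaling shifts all log2 ratios by 0.13 relative to total counts. With total counts Mir296 also passed, as lower in replicate 2 (log2 ratio -0.15, adjusted p of the exact test 5.22e-17), so that 4 of the 6 genes were called, against 57.7% of all genes. Of these, 1 was higher in replicate 2 and 3 were lower, against 12.6% and 45.1% of all genes. The ratio of Mir335 was then 0.04 and that of Mir483 -0.49. The ratio of Mir335 to Mir483 is taken within a library and does not depend on the scaling, and it was 33.2 in replicate 2 (interval 32.4 to 34.1) and 23.0 in replicate 1 (22.4 to 23.6).

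**Figure D4:**
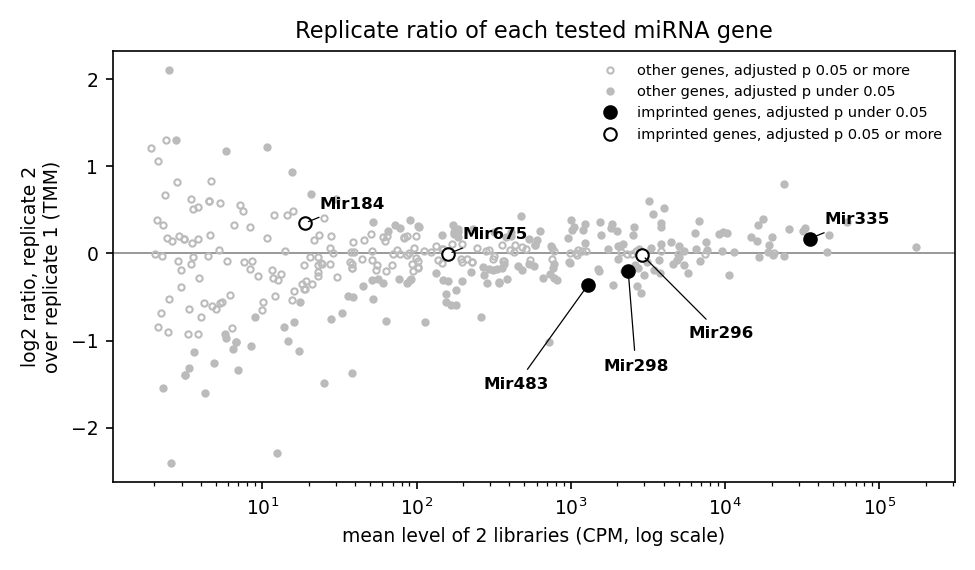
Log2 ratio of replicate 2 to replicate 1 after TMM scaling (vertical axis) against mean level (horizontal axis, CPM on a log scale) for 364 tested genes, filled where the adjusted p was under 0.05. The imprinted genes lie between -0.36 (Mir483) and 0.35 (Mir184), inside the spread of the other genes.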

How the data were processed

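For each library the authors deposited a table of raw, unnormalized read counts by miRNA gene. Its assembly is mm10 and its annotation GENCODE M4, as the readmes state. Which aligner and counter were run, and their versions, was not given in the sources used here. A table has 1973 gene rows and 4 rows that name no gene. These 4 held 17.2% (unmapped), 25.7% (several loci) and 2.88% (no gene) of reads in replicate 2, and 19.5%, 26.2% and 3.69% in replicate 1. They were left out of totals and tests. Column names are not given: the per-strand columns summed to the unstranded column in every gene row, and the column with the larger total was used as the strand of the gene.

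Counts were divided by the total of that column to give CPM. GENCODE M21, also on mm10, gave symbols and coordinates for 1894 of the 1973 identifiers, and the remaining 79 held 2 counts. With 1 group, edgeR's quasi-likelihood test has no contrast, so an exact two-sided conditional binomial test was used with TMM effective library sizes (edgeR 4.0.16), a minimum of 20 counts summed and Benjamini-Hochberg adjustment over all genes. A prior of 0.5 counts was added for log2 ratios, whose counting error is the standard error from Poisson counts. The labels call the libraries biological replicates. Python 3.11.15, scipy 1.17.1, pandas 2.3.3 and R 4.3.3 were used.

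The genes named are the 6, the genes directly above and below each in mean CPM, and the 3 highest of the Dlk1-Dio3 list and the Sfmbt2 cluster. Genes sharing a seed were to be named as well, but there were none. Other neighbours in a pair comparison and the markers Mir122, Mir143, Mir215, Mir375, Mir200c and Mir192 were named after their values were seen. The genes and lists were chosen with earlier results of these data known. Of 59 Dlk1-Dio3 names, 9 had no row and were not analysed here. The Sfmbt2 cluster is every row inside Sfmbt2 on its strand. Alternatives were unstranded counts, totals without the most abundant gene or over all reads, each replicate alone, DESeq2 1.42.0 size factors, total counts, count minimums of 1 and 100, and a 1.5-fold minimum.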

Additional observations from a re-analysis of the deposited data

Results flagged for a closer look

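Reads on the opposite strand, which the levels do not use, were far above the limit of 3 counts at 4 rows of the Dlk1-Dio3 region (Gm24321, Gm25252, Gm25750 and Mir299b). Together they came to 9991 ± 115 CPM (SD, n = 2), while the same rows had 15 counts in replicate 2 and 14 in replicate 1 on their own strand. The rows were picked for having more opposite-strand than own-strand counts in both libraries, so the direction of that difference follows from the choice. No such signal was seen at the 6 imprinted genes outside that region, where opposite-strand reads numbered 3 in each library at Mir335 and 0 at the other 5.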

How the results depend on the processing

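The ratios of Mir296 to Mir298 (1.16 to 1.32), Mir483 to Mir675 (7.06 to 9.02) and Mir335 to Mir296 (11.4 to 13.0) are given as the range over each replicate alone, and with unstranded counts each stayed within its SD. The share of counts held by the 6 genes was 4.19% to 4.21% with each replicate alone, 4.04% with unstranded counts, 5.08% with Mir143 left out of the total and 2.12% of all reads. The paternal sum was 41720 to 41974 CPM with each replicate alone, and 40296, 50651 and 21121 CPM under those 3 settings. The maternal sum was 153 to 168 CPM with each replicate alone, 194 CPM without Mir143 and 80.7 CPM of all reads. These shifts follow from the changed totals. With a 1.5-fold minimum 0 genes were called in place of 3 (1 higher and 2 lower in replicate 2); the count needs both libraries, so none could be left out. Under DESeq2 size factors the log2 ratio of Mir296 was 0.00090 and that of Mir675 0.013. With no filter they were 0.023 and 0.035, and with at least 100 counts summed Mir675 was at 0.00025; none of these passed the test. The calls of Mir335, Mir298 and Mir483 held under DESeq2 size factors, total counts, both other count minimums and unstranded counts. No paired analysis was possible because both libraries form 1 group. Depth limits Mir184 most, at 74 counts in replicate 1.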
